A study of Mus musculus with 8 samples.

Results

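The 10 genes described here code for the glucose transporter and the enzymes that carry glucose to lactate in mouse SN4741 cells, namely Slc2a1, Hk1, Hk2, Pfkp, Aldoa, Gapdh, Pgk1, Eno1, Pkm and Ldha. They were found by their symbols among the 31053 genes of the deposited matrices, and all 10 were among the 15810 genes with enough counts to be tested. The 10 symbols matched 11 rows, because Aldoa is listed under a pair of identifiers. The row with 45031 unique molecular identifiers (UMIs, counts of single captured transcripts) was used, and the other row, with 12 UMIs, was left out. Transcripts were counted in single cells of 8 libraries. The 4 undifferentiated libraries came from cultures at 37°C in 10% FBS (fetal bovine serum), and the 4 differentiated libraries from cultures held at 39°C in 0.5% FBS for 48 hours. Temperature and serum therefore changed together and cannot be told apart in any comparison between these groups. SN4741 was derived as a clonal mouse neural precursor line from embryonic substantia nigra of transgenic mice, in which the tyrosine hydroxylase promoter drives a temperature-sensitive viral T antigen. Every library carries this transgene, and the line has an abnormal, variable karyotype. The labels do not say whether the replicates of a temperature were separate thaws or passages, so p-values measure the spread between these 4 libraries, which may be technical.

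Glycolysis is the cytosolic route that splits glucose into pyruvate and yields a small amount of ATP. Transporters bring glucose in, hexokinases trap it, and phosphofructokinase commits it to the pathway, which are the upper steps that spend ATP. The lower steps, from glyceraldehyde phosphate dehydrogenase to pyruvate kinase, return ATP and NADH, and lactate dehydrogenase recycles the NADH by turning pyruvate into lactate. Dividing cells, including neural precursors, are known for high use of this route even in oxygen, and hypoxia-inducible factor and Myc are known activators of many of its genes.

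After filtering, 18351 of 19125 cells were kept, 985 to 3494 per library, with 17166686 to 29633818 UMIs per library and a median of 6676 to 16665 UMIs per cell. The median mitochondrial share of a cell's UMIs was 7.55% to 7.89% in the 37°C libraries and 8.04% to 8.85% in the 39°C libraries. Pairs of libraries shared at most 5 cell barcodes. Of the 11 neural precursor markers checked, Vim, Notch1, Nes, Hes1 and Sox2 were well detected, while Msi1 had 12 UMIs, Pax6, Sox1, Fabp7 and Prom1 had 6 or fewer, and Hes5 had 0. Levels are given as CPM, counts per 1000000 UMIs of the tested genes with totals scaled by TMM factors (a trimmed mean that sets most genes equal between libraries). Each UMI marks 1 transcript end whatever the transcript's length, so levels of different genes are set side by side without a length correction.

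At 37°C the 10 genes together took 0.323% ± 0.0233 (SD, n = 4) of all UMIs, and at 39°C 0.175% ± 0.00374 (SD, n = 4). The lowest 37°C library held 0.290% and the highest 39°C library 0.179%, so the temperatures did not overlap. In the edgeR quasi-likelihood fit over all tested genes, 8 of the 10 genes passed an adjusted p under 0.05 with a lower level at 39°C, 0 passed with a higher level, and Slc2a1 and Hk1 did not pass. Over all 15810 tested genes, 30.5% passed with a lower level and 31.5% with a higher one. The median log2 fold change of 39°C over 37°C was -0.65 for the 10 genes and 0.02 for all tested genes. The 8 lower genes were also those whose 39°C libraries all lay below all 37°C libraries, which held for 28.0% of all tested genes. None of the 10 met the stricter rule of an adjusted p under 0.01 with a log2 fold change over 1.5 in size, which 5.83% of tested genes met. In summed libraries, fewer cells using a gene and less of its RNA per cell cannot be told apart.

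**Figure D1:**
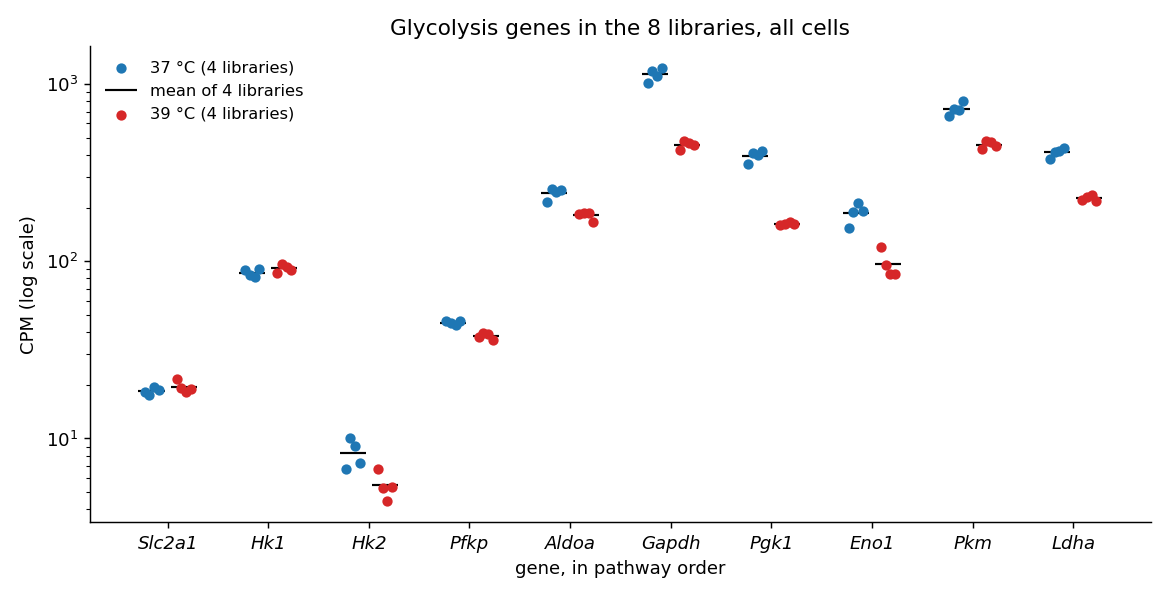
Level of each gene in CPM (log axis) in the 8 libraries, with 37°C in blue, 39°C in red and the mean of 4 libraries as a black bar. The colors overlap for Slc2a1 and Hk1 and separate for the other 8 genes, widely for Gapdh and Pgk1 and barely for Hk2.

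The sequences before the starts of these genes are shown because 8 of the 10 genes moved the same way and because hypoxia-inducible factor, Myc and Sp1 are known to bind short motifs near such starts. RefSeq (GRCm38.p6) gave 17 windows for the 10 genes, each holding the 250 bases before a transcription start. The hypoxia response core (ACGTG or GCGTG, either strand) occurred in 14 of the 17 windows, against 38.6% of all 32851 windows. By gene, it occurred in at least 1 window of 10 of the 10 genes, against 11226 of all 27025 genes. A pair of Aldoa windows and a pair of Eno1 windows overlap and share sequence, so the 17 windows are not separate counts. The core contains CG, and the windows of the 10 genes held 49.6% to 71.2% G and C. Neither base composition nor the number of windows per gene was matched in these comparisons, so they cannot tell an excess of the core from either. The E-box that Myc binds (CACGTG, which contains the core) occurred in 1 of 17 windows, one of the Ldha windows, against 6.02% of all windows. The GC box that Sp1 binds (GGGCGG, either strand) occurred in 10 of 17 windows against 32.7% of all. The core was present in genes that fell and in the pair that did not pass. The windows of the 5 genes with a single annotated start are printed 5′ to 3′ on the strand of the gene, with the core in capitals.
Slc2a1 (chr4:119108495-119108744, plus strand): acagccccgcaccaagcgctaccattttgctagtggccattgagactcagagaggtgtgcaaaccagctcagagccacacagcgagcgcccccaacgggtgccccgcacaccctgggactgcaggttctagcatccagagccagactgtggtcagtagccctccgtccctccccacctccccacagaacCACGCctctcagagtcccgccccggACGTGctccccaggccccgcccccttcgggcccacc
Hk2 (chr6:82774455-82774704, minus strand): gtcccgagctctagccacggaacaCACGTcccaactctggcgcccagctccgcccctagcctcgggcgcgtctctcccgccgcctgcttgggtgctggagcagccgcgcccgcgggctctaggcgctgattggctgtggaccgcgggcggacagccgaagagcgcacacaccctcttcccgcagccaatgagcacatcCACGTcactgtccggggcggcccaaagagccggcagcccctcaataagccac
Pfkp (chr13:6648772-6649021, minus strand): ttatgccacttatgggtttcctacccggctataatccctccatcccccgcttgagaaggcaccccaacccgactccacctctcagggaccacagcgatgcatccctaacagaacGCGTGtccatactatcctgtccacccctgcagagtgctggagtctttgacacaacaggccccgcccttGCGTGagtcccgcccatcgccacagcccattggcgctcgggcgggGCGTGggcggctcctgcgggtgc
Gapdh (chr6:125165774-125166023, minus strand): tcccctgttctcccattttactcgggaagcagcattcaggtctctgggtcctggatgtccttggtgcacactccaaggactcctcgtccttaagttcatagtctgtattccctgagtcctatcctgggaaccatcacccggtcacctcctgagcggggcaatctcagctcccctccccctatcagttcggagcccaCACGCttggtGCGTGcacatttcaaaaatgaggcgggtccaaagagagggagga
Pgk1 (chrX:106186850-106187099, plus strand): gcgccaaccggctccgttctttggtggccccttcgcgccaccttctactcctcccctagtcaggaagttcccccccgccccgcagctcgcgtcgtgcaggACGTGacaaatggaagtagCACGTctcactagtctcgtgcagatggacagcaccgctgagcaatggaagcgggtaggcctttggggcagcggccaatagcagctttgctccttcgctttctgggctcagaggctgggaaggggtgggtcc
Slc2a1, Hk2, Gapdh and Pgk1 held 2 matches each and Pfkp held 3. A match is a run of letters and not a measured binding site.

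The uptake and trapping steps open the pathway. Slc2a1 (GRCm38 chromosome 4, 119108711 to 119137983, plus strand) codes for GLUT1, the basal glucose transporter of most cells. Its level was 18.3, 17.5, 19.4 and 18.7 CPM in 37°C replicates 1 to 4 and 21.6, 19.3, 18.3 and 19 CPM in 39°C replicates 1 to 4. The groups overlapped, and 39°C replicate 1 was the highest of the 8. On the log2 scale 39°C over 37°C was 0.07 ± 0.06 (SE, adjusted p = 0.316), with a 95% interval of -0.05 to 0.20. When every cell was first thinned to 2000 UMIs, Slc2a1 passed with a higher level at 39°C (log2 fold change 0.33, adjusted p = 0.0145).

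Hk1 (chromosome 10, 62268855 to 62379908, minus strand) is the hexokinase of most tissues and binds the mitochondrial surface. It measured 88.9, 84.2, 81.4 and 90.9 CPM in 37°C replicates 1 to 4 and 86.1, 97, 93 and 89.9 CPM in 39°C replicates 1 to 4. The groups overlapped, and no library stood apart. Its log2 fold change was 0.08 ± 0.05 (SE, adjusted p = 0.155), with a 95% interval of -0.02 to 0.19. Hk1 passed as higher at 39°C under 1 alternative, scaling by library totals alone (log2 fold change 0.12, adjusted p = 0.039).

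Hk2 (chromosome 6, 82725025 to 82774454, minus strand), the inducible hexokinase of muscle and of many proliferating cells, was the least abundant of the 10. It measured 6.75, 10.0, 9.04 and 7.3 CPM in 37°C replicates 1 to 4 and 6.75, 5.26, 4.46 and 5.32 CPM in 39°C replicates 1 to 4. The highest 39°C library and the lowest 37°C library, replicate 1 in both, rounded to the same level, so the groups only just failed to overlap. Hk2 fell by 0.62 ± 0.13 on the log2 scale (SE, adjusted p = 2.72e-04), or 1.54-fold. With 1443 UMIs in all libraries together it is the least precise of the 10, and the call was lost when cells were thinned to 2000 UMIs before summing (-0.40, adjusted p = 0.0794).

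Pfkp and Aldoa form the middle of the pathway. Pfkp (chromosome 13, 6579768 to 6648777, minus strand) is the platelet-type isozyme of phosphofructokinase, the committed step. It measured 45.8, 44.8, 43.5 and 45.8 CPM in 37°C replicates 1 to 4 and 37.2, 39.4, 38.7 and 36.2 CPM in 39°C replicates 1 to 4. Replicates were tight and the groups did not overlap. The log2 fold change was -0.25 ± 0.05 (SE, adjusted p = 1.12e-04), the smallest fall among the 8. Aldoa (chromosome 7, 126795234 to 126800751, minus strand) codes for the aldolase that splits the hexose into trioses. It measured 217, 256, 247 and 253 CPM in 37°C replicates 1 to 4 and 186, 187, 188 and 166 CPM in 39°C replicates 1 to 4. Every 39°C library lay below every 37°C library, and 39°C replicate 4 was the lowest. Aldoa changed by -0.42 ± 0.06 (SE, adjusted p = 2.72e-06) on the log2 scale, a 1.34-fold lower level.

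The largest falls among the 10 lay in the lower steps. Gapdh (chromosome 6, 125161715 to 125166467, minus strand) codes for glyceraldehyde phosphate dehydrogenase, which makes the NADH of the pathway and often serves as a reference gene in RT-qPCR. Its level was 1017, 1188, 1112 and 1241 CPM in 37°C replicates 1 to 4 and 423, 477, 465 and 456 CPM in 39°C replicates 1 to 4. Every 37°C library lay far above every 39°C library. The log2 fold change was -1.32 ± 0.06 (SE, adjusted p = 1.07e-12), which is a 2.5-fold lower level. Pgk1 (chromosome X, 106187100 to 106203699, plus strand), phosphoglycerate kinase, makes the first ATP of the pathway. It measured 355, 406, 398 and 421 CPM in 37°C replicates 1 to 4 and 159, 163, 167 and 162 CPM in 39°C replicates 1 to 4. The 39°C libraries agreed closely with each other and lay far below the 37°C libraries. Pgk1 changed by -1.28 ± 0.05 (SE, adjusted p = 1.67e-13) on the log2 scale, a 2.43-fold lower level.

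Eno1 (chromosome 4, 150236721 to 150248879, plus strand) codes for alpha-enolase, the ubiquitous enolase. It measured 154, 189.9, 214 and 193 CPM in 37°C replicates 1 to 4 and 121, 94.9, 84.9 and 84.3 CPM in 39°C replicates 1 to 4. The groups did not overlap, although 39°C replicate 1, the library with the fewest cells, lay above the other 39°C libraries. The log2 fold change was -0.97 ± 0.10 (SE, adjusted p = 5.52e-08), and without 39°C replicate 1 it was -1.10 (adjusted p = 3.6e-11). Some reads of Eno1 may be shared with Eno1b, a near-identical copy with 462 UMIs against 30225 for Eno1, so the split between the pair is uncertain.

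Pkm (chromosome 9, 59656368 to 59679375, plus strand) codes for pyruvate kinase of muscle and dividing cells, whose splice forms cannot be separated in these counts. It measured 663, 720.0, 715 and 804 CPM in 37°C replicates 1 to 4 and 429.9, 475, 469 and 449.8 CPM in 39°C replicates 1 to 4. The groups did not overlap, and the spread at 37°C exceeded that at 39°C. Pkm changed by -0.67 ± 0.06 (SE, adjusted p = 8.42e-09) on the log2 scale, a 1.59-fold lower level. Ldha (chromosome 7, 46841475 to 46855627, plus strand), the lactate dehydrogenase subunit that favors lactate formation, measured 379, 415, 418 and 437 CPM in 37°C replicates 1 to 4 and 221, 229.9, 237 and 220.0 CPM in 39°C replicates 1 to 4. The libraries of each temperature lay close together and the groups were well apart. Ldha changed by -0.86 ± 0.05 (SE, adjusted p = 3.58e-11) on the log2 scale, a 1.82-fold lower level. Genes on the opposite strand overlap several of the 10, and on the same strand Mir1957a overlaps Slc2a1 and Gm49759 overlaps Pkm, neither of which is counted in these files. Gapdh, Pgk1, Aldoa and Ldha have processed copies elsewhere in the mouse genome, and how reads shared with them were assigned is not given in the sources used here.

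Because the falls were unequal, the makeup of the glycolysis transcripts differed between temperatures. Gapdh made up 34.9% ± 0.691 of the 10 genes' UMIs at 37°C and 26.3% ± 0.881 at 39°C (SD, n = 4). Pkm made up 22.2% ± 0.578 and 26.3% ± 0.59, and Hk1 2.66% ± 0.243 and 5.28% ± 0.141. Gapdh was thus the leading transcript at 37°C, ahead of Pkm in every library, while at 39°C Gapdh and Pkm overlapped. In the order of mean levels at 37°C, Gapdh, Pkm, Ldha, Pgk1, Aldoa, Eno1, Hk1, Pfkp, Slc2a1 and Hk2, Ldha and Pgk1 were the neighbors whose ranges overlapped. At 39°C the order was Pkm, Gapdh, Ldha, Aldoa, Pgk1, Eno1, Hk1, Pfkp, Slc2a1 and Hk2, and the ranges of Pkm and Gapdh, of Aldoa and Pgk1, and of Eno1 and Hk1 overlapped.

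**Figure D2:**
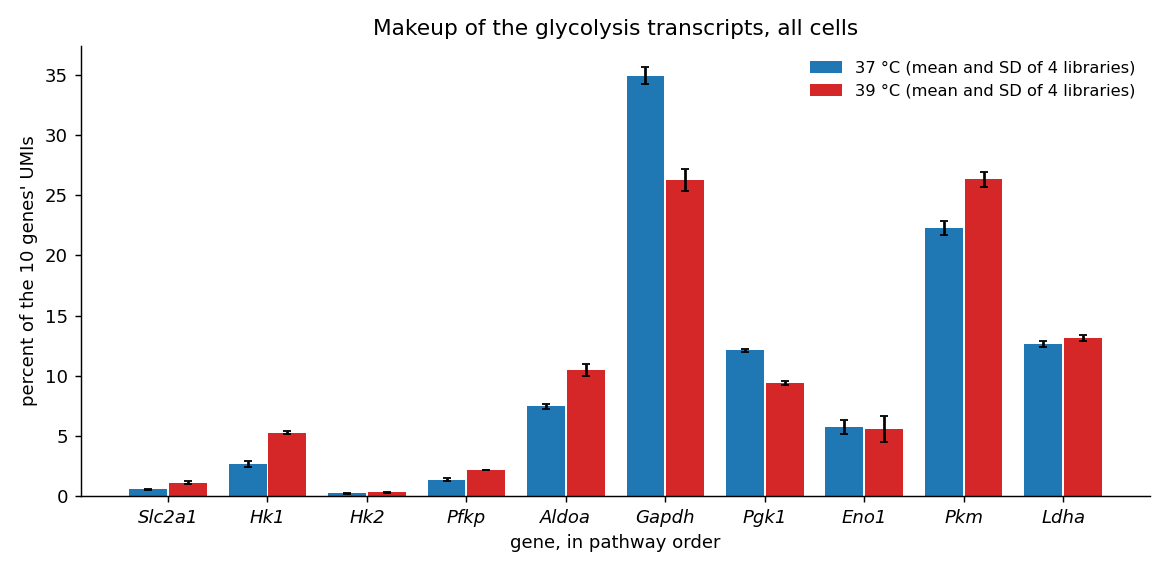
Each gene's percent of the UMIs of the 10 genes in all kept cells, as the mean of 4 libraries with SD, 37°C in blue and 39°C in red. Gapdh and Pgk1 took smaller shares at 39°C, while Hk1, Pfkp, Aldoa and Pkm took larger ones.

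The other enzymes of the same steps were described from a list of 20 genes, of which 13 were tested, 4 passed as higher and 7 as lower, with a median log2 fold change of -0.48, beside 31.5% higher and 30.5% lower over all tested genes. Tpi1, triose phosphate isomerase, measured 212, 248, 232 and 247 CPM in 37°C replicates 1 to 4 and 94, 99.9, 97.2 and 95.2 CPM in 39°C replicates 1 to 4. Pgam1, the phosphoglycerate mutase of most tissues, measured 367, 422, 423 and 449 CPM in 37°C replicates 1 to 4 and 172, 188, 194 and 187 CPM in 39°C replicates 1 to 4. Both showed wide gaps between the temperatures. Their log2 fold changes were -1.28 ± 0.05 (SE, adjusted p = 1.44e-13) for Tpi1 and -1.16 ± 0.06 (SE, adjusted p = 3.09e-12) for Pgam1. The run of consecutive steps from Tpi1 through Gapdh, Pgk1 and Pgam1 to Eno1 thus held log2 fold changes between -1.32 and -0.97.

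Upstream of that run, Gpi1, glucose phosphate isomerase, was higher at 39°C by a log2 fold change of 0.34 ± 0.05 (SE, adjusted p = 4.65e-06), and Pfkl, the liver-type phosphofructokinase, by 0.32 ± 0.06 (SE, adjusted p = 1.27e-04). Their groups did not overlap, with Gpi1 at 126 to 139 CPM at 37°C and 156 to 169.7 CPM at 39°C. Pfkm, the muscle type, did not pass (-0.09 ± 0.07 SE, adjusted p = 0.264). The 3 phosphofructokinase isozymes therefore gave 1 lower, 1 higher and 1 that did not pass.

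The enolases also parted. Eno3, beta-enolase, known from muscle, was lower at 39°C with a log2 fold change of -2.54 ± 0.07 (SE, adjusted p = 2.48e-16), from 39.4 ± 3.17 to 6.76 ± 0.122 CPM (SD, n = 4) and met the stricter rule. Eno2, gamma-enolase, known from neurons, was higher by 0.80 ± 0.09 (SE, adjusted p = 2.47e-07), from 5.12 ± 0.498 to 8.94 ± 0.746 CPM (SD, n = 4). At both temperatures Eno2 stayed far below Eno1. Eno1b fell with Eno1 (-1.08 ± 0.19 SE, adjusted p = 7.76e-05), subject to the shared reads named above. Bpgm, which makes a regulatory side product, was lower with a log2 fold change of -0.48 ± 0.07 (SE, adjusted p = 3.08e-06), and Ldhb, the other main lactate dehydrogenase subunit, did not pass (0.81 ± 0.38 SE, adjusted p = 0.0725). Aldoc, Gapdhs and Pgam2 had 42, 101 and 11 UMIs in all. Aldoc passed as lower (-1.64 ± 0.48 SE, adjusted p = 0.00605) and Gapdhs as higher (1.84 ± 0.37 SE, adjusted p = 2.09e-04). Pgam2 had 11 UMIs at 37°C and 0 at 39°C, which is at least 3.15-fold lower when a count of 0 is taken to allow 3 over the 39°C libraries.

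**Figure D3:**
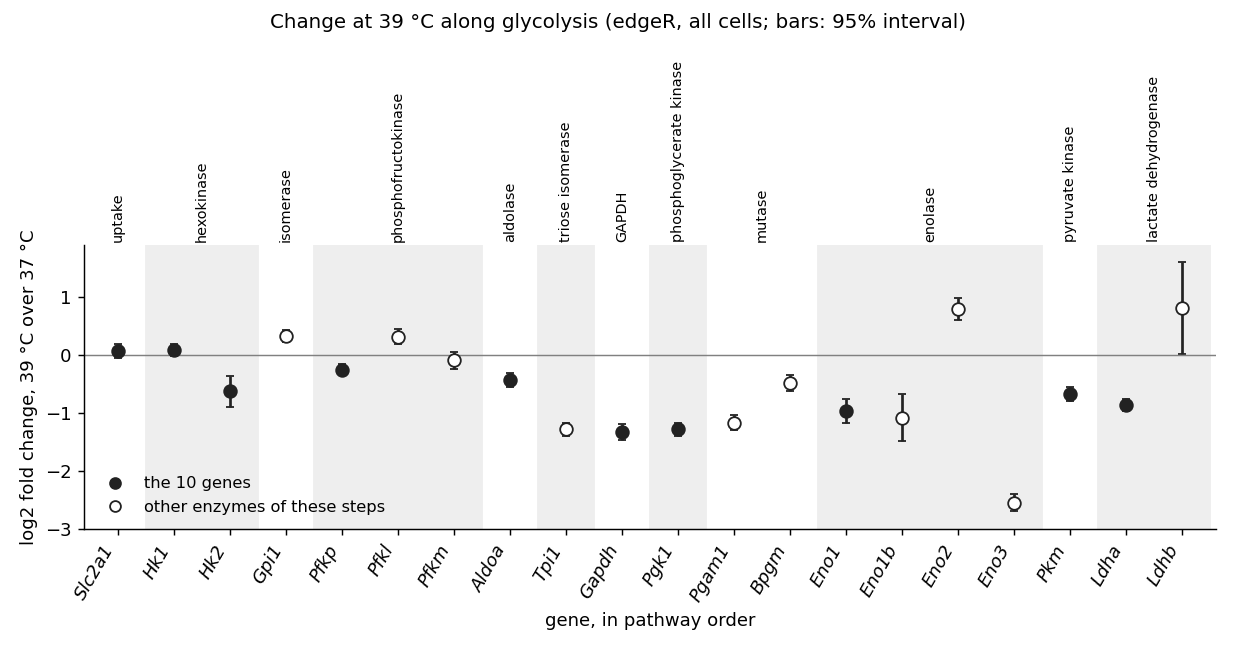
Log2 fold change of 39°C over 37°C in all cells (vertical axis, edgeR, bars 95% interval) for the 10 genes (filled) and the other enzymes of these steps (open), in pathway order, leaving out genes under 1 CPM at both temperatures. Slc2a1 and Hk1 lie near 0, Tpi1, Gapdh, Pgk1, Pgam1 and Eno1 lie near or below -1, Pkm and Ldha lie between, and Gpi1, Pfkl and Eno2 lie above 0.

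The cell-cycle makeup of the cultures also differed between temperatures, so the comparison was repeated among cells assigned to the same phase. G1 cells made up 24.1% ± 3.41 of cells at 37°C and 84.3% ± 1.22 at 39°C (SD, n = 4), while S cells made up 40.5% ± 2.52 and 11.3% ± 0.721, and G2M cells 35.5% ± 1.37 and 4.43% ± 1.06. These shares depend on how phases were assigned. With each library scored by itself, G1 cells made up 38.1% to 42.5% at 37°C and 54.1% to 58.8% at 39°C, and G2M cells 28.7% to 30.8% and 11.98% to 17.7%. None of the 10 genes was on the lists that assigned the phases. Among G1 cells, 8 of the 10 genes passed as lower at 39°C and 0 as higher, against 22.4% and 24.8% of 14712 tested genes, and the median log2 fold change of the 10 was -0.60 against 0.04 for all tested genes. Among S cells 8 passed as lower and 0 as higher, against 23.4% and 20.1% of 13740 tested genes. Among G2M cells 7 passed as lower and 0 as higher, against 16.5% and 13.2% of 13802 tested genes.

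Gapdh in G1 cells measured 853, 999, 921 and 1034 CPM in 37°C replicates 1 to 4 and 418, 465, 452 and 444 CPM in 39°C replicates 1 to 4. The groups did not overlap, with a narrower gap than in all cells. The log2 fold change was -1.10 ± 0.06 (SE, adjusted p = 2.21e-12), beside -1.32 in all cells. Pgk1 gave -0.97 ± 0.05 (SE, adjusted p = 1.61e-12) in G1 cells, and Eno1 -0.64 ± 0.09 (SE, adjusted p = 5.44e-06). Ldha, the lactate-forming step, gave -0.60 ± 0.05 (SE, adjusted p = 2.67e-09). These 4 lower-step genes had smaller falls within G1 than in all cells, a difference that was not tested. Slc2a1 and Hk1 did not pass within G1 either, at 0.10 ± 0.09 (SE, adjusted p = 0.338) and -0.05 ± 0.06 (SE, adjusted p = 0.578).

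Pfkp and Aldoa followed another order. In G1 cells Pfkp fell further than in all cells, to -0.44 ± 0.06 (SE, adjusted p = 7.53e-07), with levels of 51.8, 51.9, 50.7 and 53.2 CPM in 37°C replicates 1 to 4 and 37.3, 39.6, 38.8 and 37.4 CPM in 39°C replicates 1 to 4. The temperatures did not overlap. In G2M cells Pfkp measured 44.6, 43.4, 40.1 and 45.8 CPM in 37°C replicates 1 to 4 and 45.4, 49.7, 42.4 and 33.2 CPM in 39°C replicates 1 to 4, and the groups overlapped (-0.05 ± 0.12 SE, adjusted p = 0.799). Aldoa changed by -0.48 ± 0.06 (SE, adjusted p = 7.86e-07) in G1 cells, -0.95 ± 0.07 (SE, adjusted p = 1.45e-12) in S cells and -0.90 ± 0.10 (SE, adjusted p = 1.24e-08) in G2M cells. Hk2 passed in each phase, at -0.60 ± 0.16 (SE, adjusted p = 0.00341) in G1, -0.58 ± 0.22 (SE, adjusted p = 0.035) in S and -1.26 ± 0.39 (SE, adjusted p = 0.0112) in G2M cells, but its groups overlapped in S and G2M cells. In S cells the call of Hk2 was lost in 15 of 24 alternatives, among them leaving out 37°C replicates 2 or 3 or 39°C replicates 2, 3 or 4. In G2M cells, where Hk2 had 11 UMIs over the 39°C libraries together, its call was lost in 7 of 24 alternatives. Among them were leaving out 39°C replicate 2 (-1.13, adjusted p = 0.055) or replicate 3 (-1.13, adjusted p = 0.067). In G1 cells the call of Hk2 was lost when cells were thinned to 2000 UMIs before summing (-0.26, adjusted p = 0.59). The call of Pfkp in S cells was lost without 39°C replicate 4 (-0.21, adjusted p = 0.066) and with library totals only (-0.18, adjusted p = 0.0845). It was also lost with a mitochondrial share of at most 10% (-0.20, adjusted p = 0.0649) and with equal cells per library (-0.28, adjusted p = 0.0707).

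**Figure D4:**
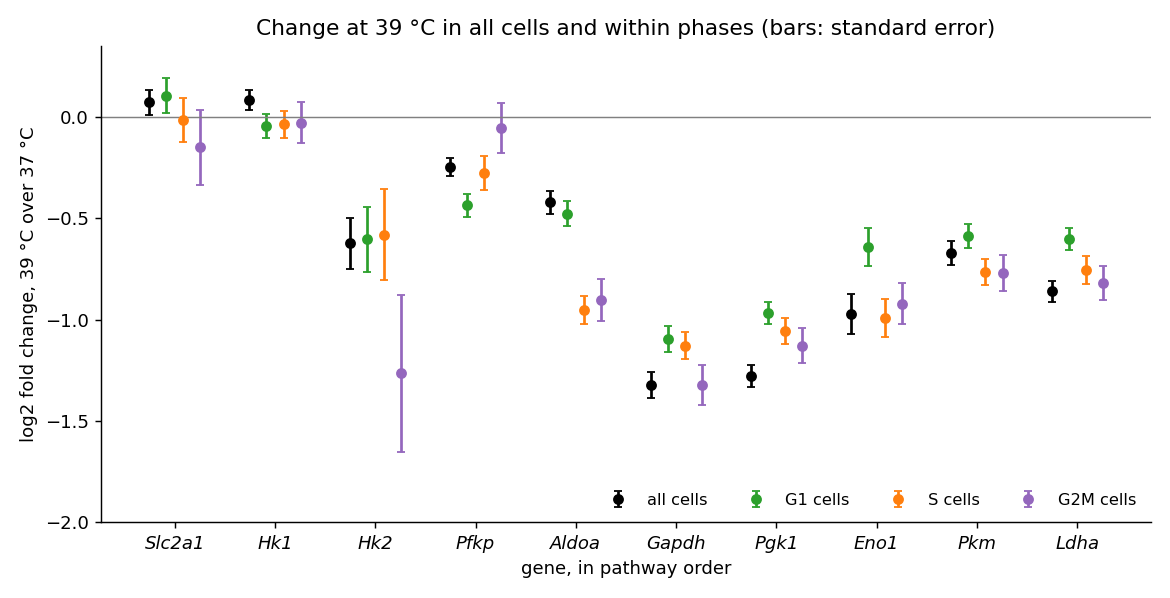
Log2 fold change of 39°C over 37°C (vertical axis, edgeR, bars SE) for the 10 genes in all cells (black), G1 (green), S (orange) and G2M cells (purple). The lower-step genes stay below -0.5 in every phase, Slc2a1 and Hk1 stay near 0, and Pfkp comes up to -0.05 in G2M cells.

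The phases themselves were compared within libraries, with the library as a block, to compare cells assigned to G2M and to G1 in the same culture. CPM in this comparison were scaled over the sums of all phases together, so they differ slightly from the levels given for single phases above. At 37°C, 4 of the 10 genes passed as higher in G2M than in G1 cells and 4 as lower, against 20.8% and 22.7% of 14172 tested genes. The 4 higher genes all act in the lower steps. Gapdh measured 869, 1021, 939 and 1056 CPM in G1 cells of 37°C replicates 1 to 4 and 1048, 1194, 1115 and 1263 CPM in their G2M cells. The G2M value was above the G1 value in each of the 4 libraries. The log2 ratio of G2M over G1 was 0.25 ± 0.03 (SE, adjusted p = 9.96e-12) for Gapdh, 0.39 ± 0.03 (SE, adjusted p = 8.15e-19) for Pgk1, 0.26 ± 0.04 (SE, adjusted p = 8.15e-09) for Eno1 and 0.20 ± 0.03 (SE, adjusted p = 2.81e-07) for Ldha. The 4 lower genes were Hk1 (-0.36 ± 0.05 SE, adjusted p = 7.47e-10), Hk2 (-0.48 ± 0.15 SE, adjusted p = 0.00612), Pfkp (-0.29 ± 0.06 SE, adjusted p = 1.21e-05) and Aldoa (-0.41 ± 0.04 SE, adjusted p = 7.41e-16), which act at or before the aldolase step, and each was lower in G2M cells of all 4 libraries. Slc2a1 (-0.18 ± 0.09 SE, adjusted p = 0.0963) and Pkm (-0.02 ± 0.03 SE, adjusted p = 0.586) did not pass. Without 37°C replicate 2 the call of Hk2 was lost (-0.30, adjusted p = 0.172). With upper quartile factors Slc2a1 (-0.24, adjusted p = 0.0225) and Pkm (-0.083, adjusted p = 0.0133) passed as lower. With phases scored in each library the call of Ldha was lost (0.05, adjusted p = 0.103). Under that setting Pkm (-0.084, adjusted p = 0.00182) and Slc2a1 (-0.23, adjusted p = 0.012) passed as lower. Cells thinned to 2000 UMIs before summing lost the calls of Ldha (0.12, adjusted p = 0.118), Pfkp (-0.33, adjusted p = 0.076) and Hk2 (-0.23, adjusted p = 0.752).

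At 37°C S cells held the highest mean level of Slc2a1, Hk2, Gapdh, Pgk1, Eno1, Pkm and Ldha. Gapdh averaged 971 ± 83.9, 1260.2 ± 84.5 and 1155 ± 93.6 CPM in G1, S and G2M cells (SD, n = 4), and Ldha 346 ± 20.4, 481 ± 25.6 and 396 ± 21.4 CPM. For Gapdh, Pgk1, Eno1, Pkm and Ldha the mean of each phase at 39°C lay below the mean of each phase at 37°C, although single libraries of Eno1 and Ldha overlapped between different phases. Gapdh at 39°C averaged 442 ± 20.6, 577 ± 38.6 and 451 ± 85.3 CPM, and Ldha 222 ± 5.63, 285 ± 29.2 and 221 ± 19.2 CPM. These S levels are given without a test.

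**Figure D5:**
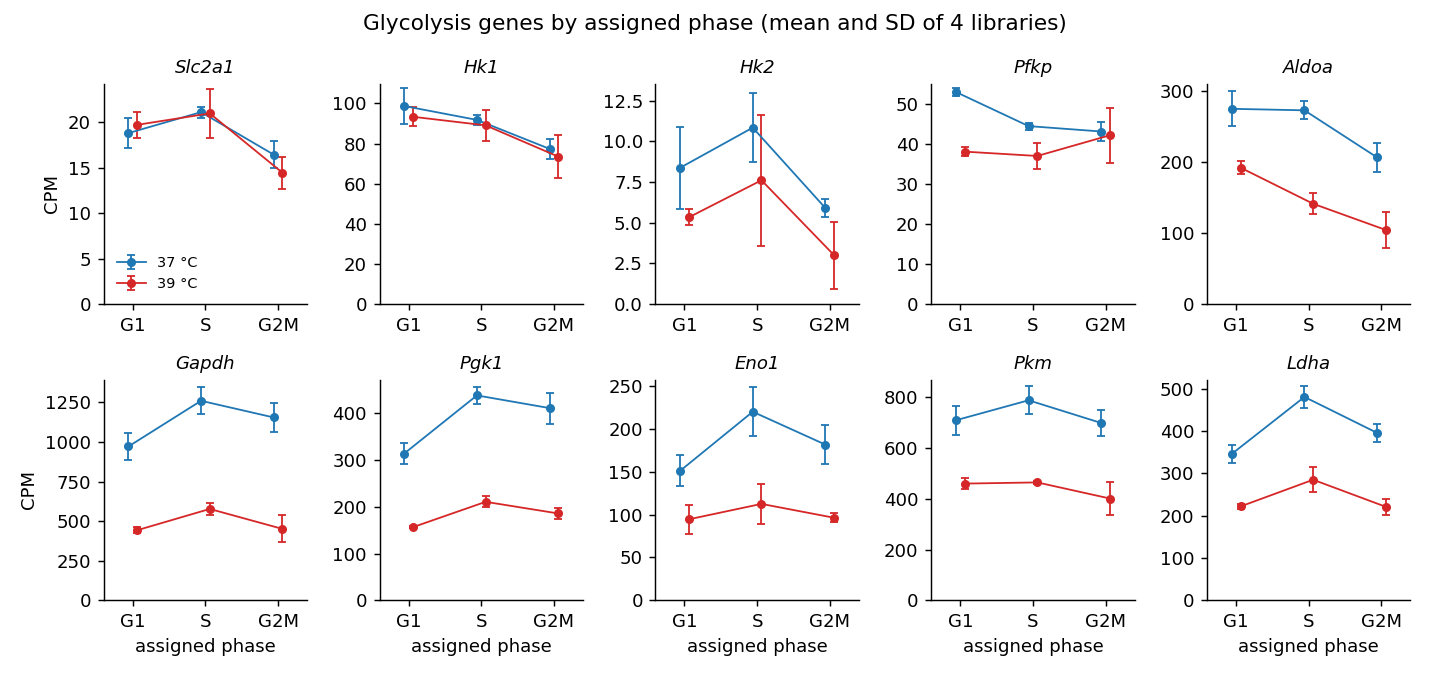
Mean level in CPM with SD over 4 libraries (vertical axis from 0) of each gene in cells assigned to G1, S and G2M, at 37°C (blue) and 39°C (red). In Gapdh, Pgk1, Eno1, Pkm and Ldha the red line lies below the blue line in all 3 phases, and in Slc2a1 and Hk1 the lines overlie each other.

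At 39°C the G2M cells were few, 29 to 187 per library, and 1 gene passed as higher and 4 as lower in G2M than in G1 cells, against 12.5% and 14.0% of 14172 tested genes. Pgk1 was the higher gene (0.26 ± 0.06 SE, adjusted p = 1.59e-04). The call of Pgk1 was lost with phases scored in each library (0.02, adjusted p = 0.775) and with equal cells per library (0.12, adjusted p = 0.391). Aldoa (-0.78 ± 0.07 SE, adjusted p = 5.75e-15), Hk1 (-0.31 ± 0.08 SE, adjusted p = 0.00216), Hk2 (-1.07 ± 0.40 SE, adjusted p = 0.0394) and Pkm (-0.16 ± 0.04 SE, adjusted p = 0.00381) were the lower ones. The calls of Hk1 and Hk2 were lost without 39°C replicate 2 (-0.22, adjusted p = 0.075, and -0.92, adjusted p = 0.153), and that of Hk2 also without replicate 3 or 4. Hk2 had 11 UMIs in these G2M cells, and its call was also lost under further alternatives, among them DESeq2 (-1.03, adjusted p = 0.0865). Without 39°C replicate 1, Gapdh passed as higher (0.12, adjusted p = 0.015), against 0.07 ± 0.04 (SE, adjusted p = 0.241) with all libraries.

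The difference between the phase contrasts at 39°C and 37°C was tested in the same fit, and 3 of the 10 genes passed, against 7.06% of 14172 tested genes in either direction. For Pfkp the difference was 0.41 ± 0.13 (SE, adjusted p = 0.0289). Its levels at 37°C were 52.7, 53, 51.7 and 54.3 CPM in G1 and 44.3, 42.9, 39.7 and 45.4 CPM in G2M cells, and at 39°C 36.9, 39.4, 38.6 and 37.4 and 44.7, 49.1, 41.9 and 32.9 CPM. Pfkp was lower in G2M cells of all 4 libraries at 37°C and higher in those of 3 of 4 at 39°C. For Aldoa, which was lower in G2M cells of all 8 libraries, the difference was -0.37 ± 0.09 (SE, adjusted p = 0.00179), and for Gapdh -0.18 ± 0.05 (SE, adjusted p = 0.0236). The calls of Pfkp and Gapdh were lost without 39°C replicate 2 (adjusted p = 0.262 and 0.051), and that of Pfkp also without 37°C replicate 3 and without 39°C replicates 1 or 3. Over all alternatives the call of Pfkp was lost in 12 of 24 and that of Gapdh in 9 of 24, among them RLE factors (adjusted p = 0.0861), upper quartile factors (0.0987), library totals only (0.271) and DESeq2 (0.103) for Gapdh. Ldha passed without 37°C replicate 3 (-0.22, adjusted p = 0.0241) and without 39°C replicate 1 (-0.19, adjusted p = 0.0388), and Pkm without 39°C replicate 4 (-0.18, adjusted p = 0.0493). Among other alternatives, Ldha and Pkm also passed with no cell filter (adjusted p = 0.00135 and 0.0131) and with updated phase lists (0.00598 and 0.0103). When phases were assigned within each library, the difference for Aldoa changed sign (0.092, adjusted p = 0.247). Under that setting Pfkp lost its call (0.22, adjusted p = 0.117). Hk1 (0.21, adjusted p = 0.031), Pgk1 (-0.23, adjusted p = 1.34e-04) and Pkm (-0.16, adjusted p = 0.0011) then passed. The call of Aldoa was also lost without the library block (-0.39, adjusted p = 0.0967) and with cells thinned to 2000 UMIs before summing (-0.45, adjusted p = 0.188).

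In single cells the counts were sparse, and cells were thinned to 2000 UMIs to compare temperatures at 1 depth, which left out 119 cells at 37°C and 310 at 39°C. Gapdh was seen in 85.1% ± 1.69 of cells at 37°C and 57.5% ± 2.08 at 39°C (SD, n = 4), against 98.7% ± 0.766 and 91.5% ± 4.79 before thinning. Pgk1 was seen in 51.2% ± 3.62 and 27.1% ± 0.887 of thinned cells, and Ldha in 52.7% ± 2.55 and 35.5% ± 1.06. These lower-step genes were thus seen in fewer cells at 39°C at equal depth. Hk1 was seen in 15.3% ± 0.457 and 16.4% ± 0.295, Slc2a1 in 3.4% ± 0.24 and 4.41% ± 0.543, and Hk2 in 1.51% ± 0.284 and 1.2% ± 0.238. For 8 of the 10 genes the share was lower at 39°C, the exceptions being Slc2a1 and Hk1, and all 10 kept their direction at 5000 UMIs. All cells belong to 1 line, so no cell type that should lack these genes was at hand to gauge free RNA.

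The cell-to-cell spread was described by the variance of UMIs per cell divided by their mean, which is 1 for random sampling alone. Thinning itself moves this ratio toward 1, and so does a lower mean. At 2000 UMIs Gapdh averaged 2.16 UMIs per cell at 37°C and 0.898 at 39°C. For Gapdh the ratio was 6.74 at 37°C and 3.78 at 39°C before thinning, where cells also differ in depth, 1.52 and 1.41 at 5000 UMIs, and 1.23 and 1.15 at 2000 UMIs. Pkm gave 1.29 and 1.47 at 5000 UMIs, and Ldha 1.32 and 1.24. At 5000 UMIs Gapdh and Ldha thus had the lower mean ratio at 39°C and Pkm the higher one, given without a test. Because the ratio also moves with the level, it cannot tell whether the spread relative to the mean differed between temperatures. Over the 45 pairs of the 10 genes, the median correlation across cells of a library, thinned to 5000 UMIs, was 0.0191 at 37°C and 0.0206 at 39°C. The highest pair at 37°C was Gapdh and Eno1, with a median of 0.144 and 0.122 to 0.181 over 4 libraries. At 39°C the highest pair was Gapdh and Pgk1, with a median of 0.103 and 0.0949 to 0.138 over 4 libraries. These are weak values in sparse counts, given without a test.

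Genes around the pathway were described from further lists, given as counts beside the shares of 30.5% lower and 31.5% higher over all tested genes. Of 10 tested glucose and lactate transporters and their partners, 2 passed as higher and 5 as lower. Slc16a1, the lactate transporter MCT1, averaged 12.5 ± 1.29 CPM in the 37°C libraries against 4.92 ± 0.43 in the 39°C ones (SD, n = 4) and changed by -1.34 ± 0.09 (SE, adjusted p = 1.85e-10) on the log2 scale. Bsg, the chaperone of the lactate transporters, was higher by 0.14 ± 0.05 (SE, adjusted p = 0.0203), and Slc2a8, an intracellular sugar transporter, by 0.44 ± 0.06 (SE, adjusted p = 2.06e-06).

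All changes given for these genes are on the log2 scale. Of 14 genes for the entry of pyruvate into mitochondria, 4 were higher and 8 lower. Pcx, pyruvate carboxylase, which makes oxaloacetate from pyruvate, averaged 32.8 ± 1.84 CPM in the 37°C libraries against 65.8 ± 4.25 in the 39°C ones (SD, n = 4) and was higher by 1.00 ± 0.05 (SE, adjusted p = 6.71e-12) on the log2 scale. Pdk3, a kinase that restrains pyruvate dehydrogenase, was lower with a log2 fold change of -1.17 ± 0.07 (SE, adjusted p = 1.36e-11), and Pdhb, a subunit of pyruvate dehydrogenase itself, by -0.51 ± 0.06 (SE, adjusted p = 1.06e-06). Of 8 pentose phosphate genes, 2 were higher and 3 lower. G6pdx, the entry enzyme of that route, changed by -0.44 ± 0.06 (SE, adjusted p = 4.83e-06), Tkt, a transketolase, by -0.35 ± 0.05 (SE, adjusted p = 8.60e-06), and Rpe, an epimerase, by 0.31 ± 0.05 (SE, adjusted p = 7.62e-06). These shifts were small beside those of Gapdh and Pgk1. Of 11 tested gluconeogenesis and glycogen genes, 1 was higher and 5 lower, with Pck2, a mitochondrial phosphoenolpyruvate carboxykinase, at -0.57 ± 0.05 (SE, adjusted p = 1.57e-08), Pgm1, a phosphoglucomutase, at -0.39 ± 0.07 (SE, adjusted p = 7.84e-05) and Ugp2, which makes UDP-glucose, at -0.20 ± 0.05 (SE, adjusted p = 0.00223). Pck1, Fbp2 and G6pc had 0 UMIs. Of the 5 enzymes that set fructose 2,6-bisphosphate, the activator of phosphofructokinase, 2 were higher and 2 lower, all below 10 CPM.

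Hypoxia response genes outside glycolysis gave 6 higher and 8 lower of 19 tested, with a median log2 fold change of -0.04. Ankrd37, a hypoxia-induced gene, averaged 15.7 ± 1.84 CPM in the 37°C libraries against 4.63 ± 0.463 in the 39°C ones (SD, n = 4) and changed by -1.75 ± 0.10 (SE, adjusted p = 6.54e-12) on the log2 scale. Ndrg1 and Ddit4, stress genes that hypoxia also induces, were higher by 0.93 ± 0.06 (SE, adjusted p = 3.15e-11) and 0.72 ± 0.07 (SE, adjusted p = 2.32e-08). The members of this list thus went both ways. Among 18 tested regulators of the pathway 6 were higher and 5 lower. Myc, a known activator of glycolysis genes, was lower with a log2 fold change of -0.75 ± 0.09 (SE, adjusted p = 9.21e-07). Arrdc4, a glucose-responsive arrestin that restrains glucose uptake, was higher by 0.86 ± 0.08 (SE, adjusted p = 9.41e-09), and Prkaa2, a catalytic subunit of the energy sensor AMPK, by 1.00 ± 0.08 (SE, adjusted p = 2.83e-09). Hif1a itself did not pass (0.16 ± 0.08 SE, adjusted p = 0.0981), and was named after its value was seen.

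Markers of other cell types were checked because some move with temperature. Mesenchymal markers gave 0 higher and 5 lower of 7 tested, and their 9 genes summed to 1763 to 1829 CPM at 37°C and 830.1 to 863 CPM at 39°C, with Lum, Thy1 and Dcn at 1, 4 and 22 UMIs in all. Neuronal markers gave 0 higher and 3 lower of 6 tested, summing to 166 to 196 and 83.3 to 101 CPM, with Dcx and Elavl4 at 0 UMIs. Immune markers gave 1 higher of 5, summing to 16.1 to 19.2 and 28.1 to 36.5 CPM, with Ptprc at 8 UMIs. Oligodendrocyte-lineage markers gave 2 higher of 4 tested, summing to 27.0 to 29.8 and 36.9 to 38.6 CPM, with Olig1, Olig2 and Sox10 at 0 UMIs. Astrocyte markers gave 1 lower of 4 tested and endothelial markers 1 higher of 3. The part of these markers, of the mitochondrial share and of depth per cell in the results above was not tested.

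The genes whose levels were most like the summed level of the 10 were sought over the 24 sums of 8 libraries in 3 phases, among 3347 genes at 50 CPM or more. Atp5a1 and Atp5c1, subunits of the mitochondrial ATP synthase, Psme2, a proteasome activator subunit, Eif6, a ribosome assembly factor, and Actg1, gamma-actin, were nearest, with Pearson r of 0.985 to 0.989 on the log2 scale. The points share libraries and split by temperature, so r is a description only. Among the 10 genes that were abundant enough, r with the sum was 0.993 for Gapdh, 0.982 for Pkm, 0.971 for Ldha, 0.966 for Pgk1, 0.913 for Eno1, 0.828 for Aldoa and 0.286 for Hk1, where each gene is also part of the sum.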

How the data were processed

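Single-cell RNA-seq counts were taken as deposited. The authors made these UMI counts per gene and cell with Cell Ranger 3.0.1 on mm10, 1 matrix for each of 8 libraries, with 4 at 37°C and 4 at 39°C. Cells with a mitochondrial share of at most 15% and 200 to 6000 genes were kept, and this upper limit on genes was the only treatment of doublets. Depth is given at the head of the report, and the floor for a count of 0 covers counting error only. The 95% intervals come from the edgeR fit and include the spread between libraries. Phases were assigned with Seurat 5.3.0 to all kept cells together. UMIs were summed per library, or per library and phase, and genes with a mean count of at least 1 were tested with the quasi-likelihood test of edgeR 4.0.16 (TMM factors, R 4.3.3), with Benjamini-Hochberg adjustment over all tested genes. SE was taken as the log2 fold change over the square root of F. G2M and G1 sums were compared with library as a block. Every p-value printed is such an adjusted p unless DESeq2 1.42.0 is named. The code was checked on simulated counts, whose spread between libraries was set and not fitted to these data. Of 100 genes changed by 0.5 on the log2 scale, 70 were recovered by temperature in all cells. In G2M cells 37 of 100 were recovered, and 23 of 100 for the difference between phase contrasts. A gene that did not pass may still differ. Promoter windows came from RefSeq (GRCm38.p6).

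The 10 genes are named in every comparison. Every tested gene of the other enzymes of these steps is named, and from each further list up to 3 genes with the largest change among those that passed in all cells with at least 10 CPM. Hif1a and marker genes were named outside this rule. The genes and lists were chosen with earlier results of these data known. Alternatives covered scaling, filters on counts and cells, DESeq2, the replicate block, equal cells per library, phase assignment and each library left out. Thinning cells to 2000 UMIs before summing was chosen after seeing the data.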

Additional observations from a re-analysis of the deposited data

Results flagged for a closer look

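In groups of 4 libraries, 8 of 80 sets of levels held 1 library far from the other 3 by Dixon's criterion, where chance gives about 1 in 20, and all 8 were at 39°C. Aldoa in 39°C replicate 4 was at 166 CPM in all cells, against 186 to 188 in the other 39°C libraries, and at 178 CPM in G1 cells, against 197 to 199. Replicate 1 at 39°C, the library with the fewest cells, stood apart in 5 sets. In it Slc2a1 was at 22.1 CPM in G1 cells (18.8 to 19.3 in the others), Hk1 at 76.8 CPM in S cells (91.4 to 93.5), Eno1 at 146 CPM in S cells (98.6 to 104), Hk2 at 6.19 CPM in G2M cells (1.74 to 2.26) and Pkm at 311 CPM in G2M cells (431 to 447). Hk2 had 11 UMIs in G2M cells of all 39°C libraries together, so its levels there rest on very few counts. Slc2a1 in S cells of 39°C replicate 3 was at 16.9 CPM, against 22.1 to 22.3.

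The log2 ratio of G2M over G1 cells differed between temperatures for 3 genes by the interaction test in edgeR, with differences (39°C minus 37°C) of 0.41 for Pfkp, -0.37 for Aldoa and -0.18 for Gapdh. The call was lost in 12 of 24 alternatives for Pfkp and in 9 of 24 for Gapdh, the latter with every other scaling and with DESeq2. The difference for Aldoa became 0.092 when phases were scored in each library. Its call was also lost without the library block and with thinned cells summed.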

How the results depend on the processing

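Over the alternatives, 1543 of 1650 values of the 10 genes kept their side of the threshold without a reversal. Of the rest, 75 lost the call, 29 gained one and 3 reversed. A reversal is a change of sign where the main setting or the alternative passed. Among the 1543, 70 changed sign while passing in neither setting. The 3 reversals came when phases were scored in each library: Hk1 in G2M cells by temperature became 0.18, Gapdh in G2M against G1 cells at 39°C became -0.13, and the difference between temperatures for Aldoa became 0.092. The cause was not tested. Of the 10 genes, 8 to 9 passed by temperature in all cells, 7 to 8 in G1, 6 to 8 in S and 6 to 8 in G2M cells. For G2M against G1 at 37°C 8 passed, but 5 with cells thinned to 2000 UMIs before summing and 10 with upper quartile factors. At 39°C 5 passed, but 3 without the library block, with equal cells per library, with phases from thinned cells or with thinned cells summed. For the difference 3 passed, but 1 without the block, with a mitochondrial share of at most 10% or with thinned cells summed, and 5 with updated phase lists. Leaving out each library gave 3 to 6 at 39°C (3 without 39°C replicate 2) and 1 to 4 for the difference (1 without 39°C replicate 2).

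Deviations of libraries of the same replicate number gave correlations of -0.12, -0.12, -0.09 and 0.29 over 8358 genes. Libraries of different numbers gave -0.32 to 0.31. With 4 libraries per temperature, these values cannot tell whether the numbers pair the samples. With the replicate block, 8 of the 10 genes passed in all cells, 8 in G1, 8 in S and 7 in G2M cells.

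Counts over all tested genes moved by more than 1.5 times as follows. With thinned cells summed, genes passing went from 6933 to 3650 in G1, 5974 to 2740 in S and 4101 to 1664 in G2M cells by temperature, from 6169 to 2668 and 3750 to 1386 for G2M against G1 at 37°C and 39°C, from 1001 to 189 for the difference, and genes meeting the stricter rule in all cells from 921 to 584. Equal cells per library gave 2487 in G2M cells, 2470 for G2M against G1 at 39°C and 449 for the difference. Scoring phases in each library gave 7347 in G2M cells and 2363 for the difference, updated phase lists gave 1568 and leaving out the block 395. The percent of passing genes that were higher went from 46.2 to 59.4 in S cells, 44.4 to 57.8 in G2M cells and 47.2 to 58.8 for G2M against G1 at 39°C with library totals only, and from 47.8 to 37.1 at 37°C with upper quartile factors. For the difference it went from 44.4 to 57.6 with RLE, 57.2 with upper quartile factors and 71.6 with library totals only.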
